A study of Zea mays with 12 samples.

Results

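The transcripts named pdc2, pdh2, pdlk2 and mas1 stand at branch points of pyruvate and glyoxylate metabolism. They were followed in maize (Zea mays) leaves on the Affymetrix GeneChip Maize Genome Array, where a probe set of short oligonucleotides reports a transcript. Every probe set was taken whose platform symbol, RefSeq symbol or synonym was one of these names, which gave 5 of the 1108 genes that have a symbol and 8 of the 17621 tested probe sets. The gene pdc2 has 4 probe sets, which disagreed and are described one by one. The name pdh2 is carried by 2 genes. One has the synonym PDHE1-B and is called pdh2 here, and the other has the synonyms PGD and pgd2 and is called pgd2. The names were selected on measured values of these same arrays, the differences between lines and between soils in an earlier analysis, so the values below describe these genes and no p-value is printed for them.

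The arrays cover 4 groups of 3: S1587-17 in acid soil, S1587-17 in control soil, Cat100-6 in acid soil and Cat100-6 in control soil. Both are tropical inbred lines, of which S1587-17 is labelled sensitive and Cat100-6 tolerant to aluminium (Al), a metal that is soluble and toxic to roots in acid soils. Seedlings stayed 3 days in soil of pH 4.1 with 10 mmolc of Al per dm3, which also received calcium chloride, or in the same soil brought to pH 5.5 with 0.8 g of calcium hydroxide per kg, in which Al was not detected. Both soils were given the same nutrients. The labels call the 3 samples of a group biological replicates and do not say whether they came from separate soil bags, so the errors below measure the spread between these samples only.

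Pyruvate, the end product of glycolysis, has several fates. The mitochondrial pyruvate dehydrogenase complex turns it into acetyl-CoA for the tricarboxylic acid (TCA) cycle, and pyruvate dehydrogenase kinase switches that complex off by phosphorylation. Pyruvate decarboxylase instead makes acetaldehyde, which alcohol dehydrogenase reduces to ethanol or aldehyde dehydrogenases oxidise to acetate. Malate synthase joins glyoxylate and acetyl-CoA in the glyoxylate cycle, best known from germinating oil-storing seeds and from senescing leaves. Pyruvate also circulates in the C4 carbon-concentrating pathway of maize leaves.

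Values are log2 expression from robust multi-array average (RMA), and a level is compared only within a probe set. The tissue label fitted the leaf and seed markers: 19 probe sets of leaf photosynthesis genes had array means of 11.6 to 12.5, and 16 of seed and embryo genes had array means of 4.62 to 4.86. Only 2 root probe sets had names, with array means of 6.23 to 6.27 in S1587-17 in acid soil and 6.03 to 7.27 in S1587-17 in control soil, and of 5.16 to 6.02 in Cat100-6 in acid soil and 7.27 to 7.48 in Cat100-6 in control soil. In the last group their median was above 52.7% of all probe sets, and in Cat100-6 both were lower in acid soil at an adjusted p under 0.05 by limma. Replicate 3 of S1587-17 in control soil stood apart, correlating at 0.963 to 0.967 with the other arrays of its group, whereas all other pairs within groups correlated at 0.985 to 0.997. Values without it are given where they differ in call or sign, and for the line differences in control soil. The spiked hybridization controls, RNAs added in fixed amounts, averaged 9.71 ± 0.31 in Cat100-6 in acid soil against 10.2 ± 0.2 in Cat100-6 in control soil (SD, n = 3 each). The 3′ minus 5′ signal of the control genes, a measure of RNA quality, was 0.71 ± 0.12 and 0.81 ± 0.15 in S1587-17 in acid and control soil, and 1.35 ± 0.05 and 1.58 ± 0.10 in Cat100-6 in acid and control soil. The part of these measures in the results was not tested.

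**Figure D1:**
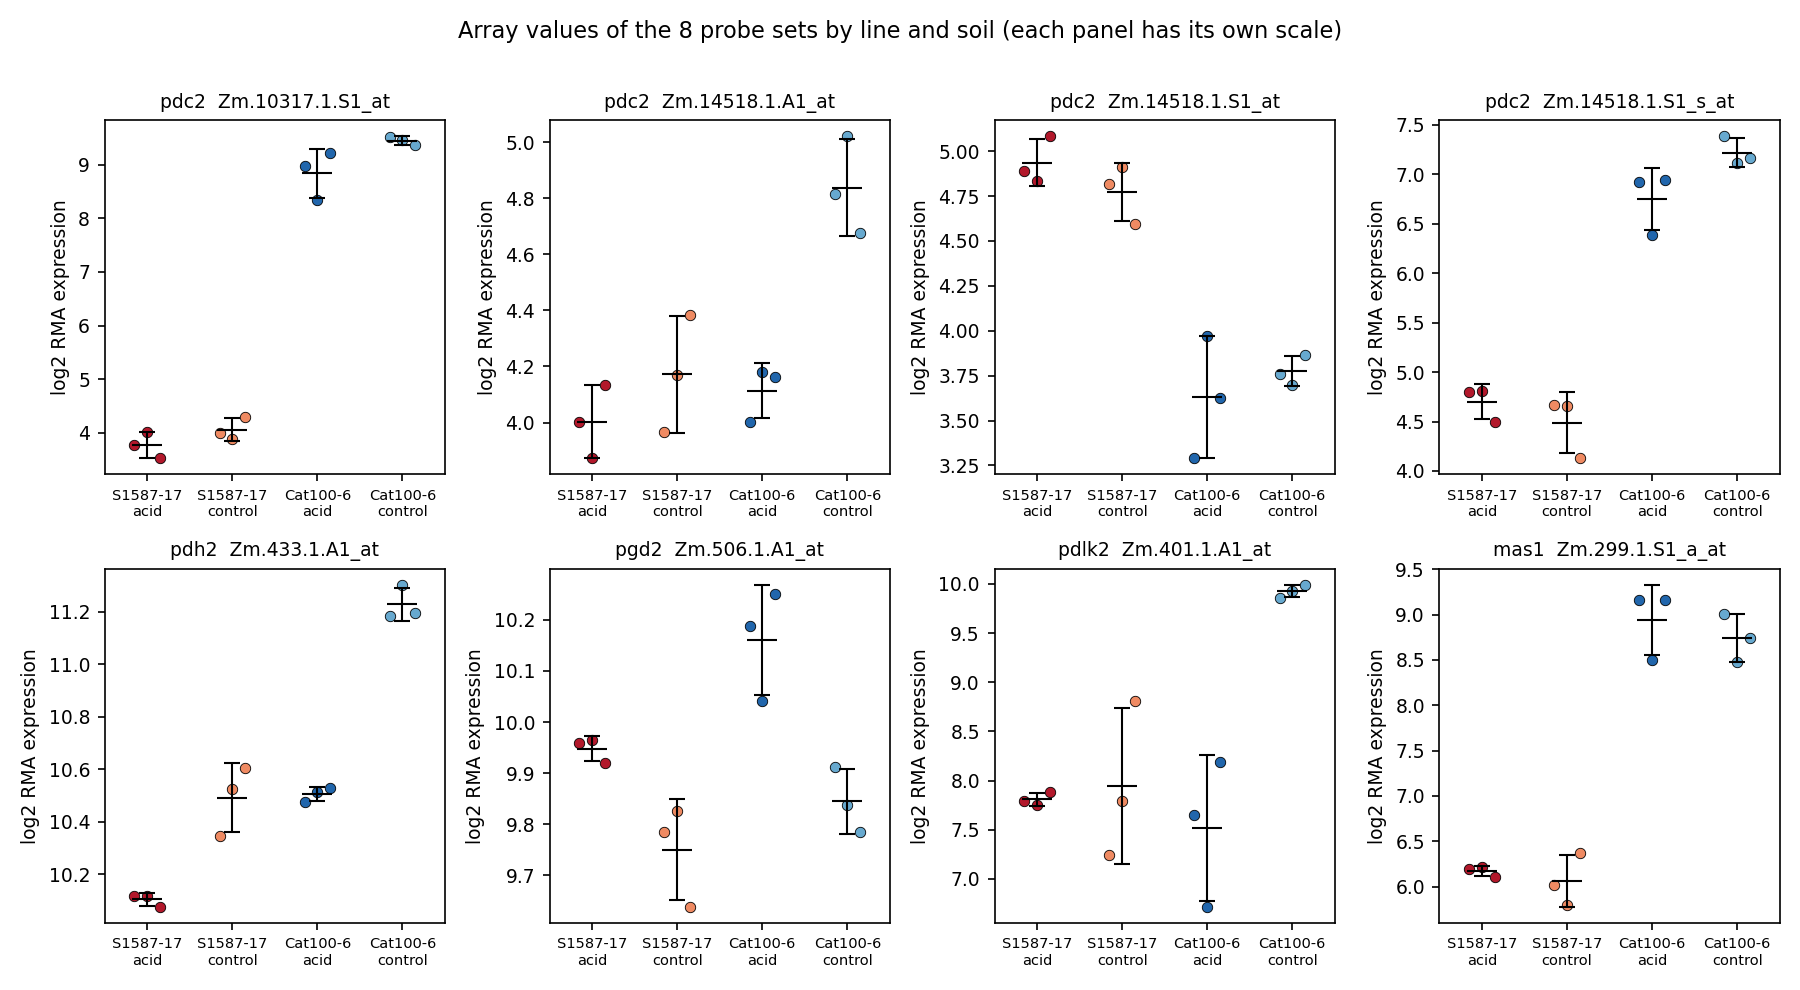
Log2 RMA expression (y axis, its own scale in each panel) of the 8 probe sets in the 4 groups (x axis). Points are single arrays, and bars show the mean and SD of 3 arrays. In pdlk2, pdh2 and the pdc2 probe set Zm.14518.1.A1_at, Cat100-6 in control soil lies above the other groups. In mas1 and the remaining pdc2 probe sets the lines lie apart in both soils.

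Of the pyruvate dehydrogenase branch, the kinase gene pdlk2 showed the largest response to soil among the 8 probe sets. In S1587-17 its log2 values were 7.79, 7.75 and 7.88 in acid soil and 7.24, 7.79 and 8.81 in control soil. In Cat100-6 they were 7.65, 6.72 and 8.18 in acid soil and 9.86, 9.93 and 9.99 in control soil. The 3 arrays of Cat100-6 in control soil were thus tight and above all 9 others, which overlapped with each other. In Cat100-6 the acid minus control difference was -2.41 ± 0.39 (SE), a 5.31-fold lower level in acid soil and the place 386 by size among 17621 probe sets. In S1587-17 the difference was -0.14 ± 0.39 with its widest array included, and 0.29 without replicate 3 of the control soil. This probe set was brighter than 53.9% of all probe sets in Cat100-6 in acid soil, against 86.3% in Cat100-6 in control soil, and than 58.9% and 61.4% in S1587-17 in acid and control soil.

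The difference between the soil responses of the lines (Cat100-6 minus S1587-17) was -2.27 ± 0.54 for pdlk2, with a 95% confidence interval of -3.47 to -1.07. It passed the threshold used throughout, an adjusted p under 0.05 by limma over all probe sets. It was the only one of the 8 that did, while 14.7% of all probe sets passed, 8.76% as higher and 5.92% as lower. Without replicate 3 of S1587-17 in control soil, 3 of the 8 passed (pdlk2, pdh2 and the pdc2 set Zm.14518.1.A1_at), against 44.9% of all, 20.6% as higher and 24.4% as lower. The size of the difference lay between -2.70 and -1.87 when each of the 12 arrays was left out in turn. The call was less stable: it held for 5 of the 12 omissions and was lost for 7, namely replicate 2 or 3 of Cat100-6 in control soil, each replicate of S1587-17 in acid soil, and replicate 1 or 2 of S1587-17 in control soil. Without replicate 3 of S1587-17 in control soil the difference was -2.70, and it passed.

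**Figure D2:**
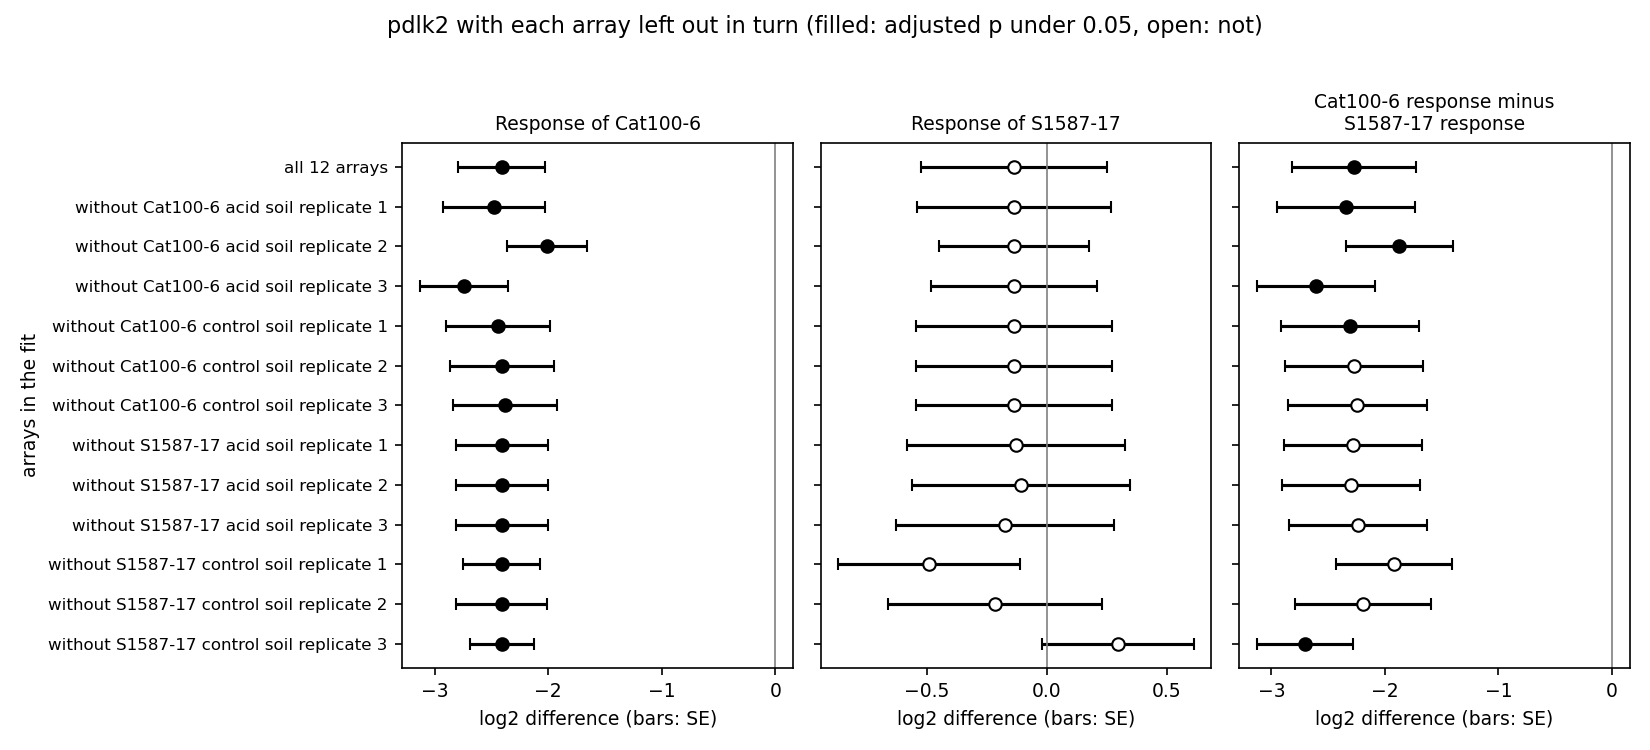
Log2 differences of pdlk2 (x axis, bars are SE) with all 12 arrays and with each array left out in turn (y axis). Filled points passed at an adjusted p under 0.05 and open points did not. The response of Cat100-6 stays below -2.00 and filled in every row, and that of S1587-17 is open throughout and lies above 0 only without replicate 3 of its control soil.

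The gene pdh2, annotated through PDHE1-B as the beta subunit of the complex's E1 enzyme, which decarboxylates pyruvate, had a smaller and very even response. In S1587-17 its values were 10.12, 10.12 and 10.08 in acid soil and 10.35, 10.52 and 10.60 in control soil. In Cat100-6 they were 10.47, 10.51 and 10.53 in acid soil and 11.18, 11.30 and 11.19 in control soil. Acid and control arrays did not overlap in either line, and acid soil was lower in both. The difference was -0.72 ± 0.09 in Cat100-6, a 1.65-fold lower level that passed, and -0.39 ± 0.09 in S1587-17, 1.31-fold lower, which did not pass. The difference between these responses, -0.34 ± 0.13, did not pass with all arrays, and passed at -0.39 without replicate 3 of S1587-17 in control soil. S1587-17 in control soil (10.49 ± 0.13, SD, n = 3) and Cat100-6 in acid soil (10.50 ± 0.03) had nearly the same mean. This probe set was bright in every group, above 87.4% to 94.8% of all probe sets.

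The other gene called pdh2 did not follow it. By its synonyms pgd2 encodes 6-phosphogluconate dehydrogenase of the oxidative pentose phosphate pathway, which makes NADPH from sugar phosphates and does not act on pyruvate. Its values in S1587-17 were 9.96, 9.97 and 9.92 in acid soil and 9.79, 9.83 and 9.64 in control soil. In Cat100-6 they were 10.19, 10.04 and 10.25 in acid soil and 9.91, 9.84 and 9.79 in control soil. Acid soil was higher without overlap in both lines, by 0.32 ± 0.09 in Cat100-6, which passed, and by 0.20 ± 0.09 in S1587-17, which did not. The lines differed by -0.21 ± 0.09 in acid soil and by -0.09 ± 0.09 in control soil (S1587-17 minus Cat100-6), and neither passed.

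The 4 pdc2 probe sets, all assigned to 1 pyruvate decarboxylase gene, gave different pictures of the lines and partly of the soils. The set Zm.10317.1.S1_at had values of 3.77, 4.02 and 3.53 in acid soil and 4.00, 3.89 and 4.30 in control soil in S1587-17. In Cat100-6 it had 8.97, 8.33 and 9.21 in acid soil and 9.53, 9.46 and 9.36 in control soil. The lines were far apart in both soils, with differences of -5.07 ± 0.21 in acid soil and -5.39 ± 0.21 in control soil (S1587-17 minus Cat100-6). The probe set was brighter than only 13.5% and 16.0% of all probe sets in S1587-17 in acid and control soil, against 73.5% and 81.3% in Cat100-6. In S1587-17 its means, 3.77 and 4.06 in acid and control soil, were below the medians of the seed and embryo probe sets in the same groups, 4.13 and 4.26. The values carry no detection call, so it is not shown to be above background in S1587-17 and no fold is given.

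The set Zm.14518.1.S1_s_at, whose suffix marks probes that can match more than one transcript, went the same way with a smaller gap. It had 4.80, 4.81 and 4.49 in acid soil and 4.67, 4.66 and 4.13 in control soil in S1587-17. In Cat100-6 it had 6.92, 6.38 and 6.94 in acid soil and 7.38, 7.12 and 7.16 in control soil. The line differences were -2.05 ± 0.19 in acid soil and -2.73 ± 0.19 in control soil (S1587-17 minus Cat100-6). The set was brighter than only 23.5% and 20.7% of all in S1587-17 in acid and control soil, against 43.9% and 51.0% in Cat100-6. For the same reason no fold is given.

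The set Zm.14518.1.S1_at went the opposite way. It had 4.89, 4.84 and 5.08 in acid soil and 4.81, 4.91 and 4.59 in control soil in S1587-17. In Cat100-6 it had 3.29, 3.97 and 3.63 in acid soil and 3.76, 3.70 and 3.86 in control soil. S1587-17 was higher by 1.31 ± 0.16 in acid soil and 1.00 ± 0.16 in control soil, without overlap. It lay among the dim probe sets, above 25.8% and 23.6% of all in S1587-17 and above 12.7% and 12.2% in Cat100-6, and no fold is given for it either.

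The set Zm.14518.1.A1_at was also dim and passed between lines in control soil alone. It had 4.00, 3.87 and 4.13 in acid soil and 3.97, 4.17 and 4.38 in control soil in S1587-17. In Cat100-6 it had 4.00, 4.18 and 4.16 in acid soil and 4.81, 5.02 and 4.68 in control soil. In control soil the difference was -0.66 ± 0.13, lower in S1587-17, which passed, and in acid soil it was -0.11 ± 0.13, which did not. One gene thus gave line differences between -5.39 and 1.00 in control soil, depending on which of its probe sets was read. The probe sequences and the genomes of the lines were not used here. A lower transcript level and a mismatch between probe and transcript therefore cannot be told apart in the line differences of pdc2, pdh2 and mas1. This includes Zm.14518.1.A1_at, which was brighter than only 16.1% and 17.3% of all probe sets in S1587-17 in acid and control soil.

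In the response to soil the pdc2 probe sets disagreed less. In Cat100-6 the acid minus control difference was -0.61 ± 0.21 for Zm.10317.1.S1_at and -0.72 ± 0.13 for Zm.14518.1.A1_at, and both passed. It was -0.47 ± 0.19 for Zm.14518.1.S1_s_at, whose arrays did not overlap but which did not pass with all arrays, and -0.14 ± 0.16 for Zm.14518.1.S1_at, whose arrays overlapped. The response of Zm.14518.1.S1_s_at passed without replicate 3 of Cat100-6 in acid soil (-0.57) and without replicate 3 of S1587-17 in control soil (-0.47). Replicate 2 of Cat100-6 in acid soil was the lowest array for the first and the third of these sets. Without that array the response of Zm.10317.1.S1_at was -0.36 and did not pass, and the call was also lost without replicate 1 or replicate 2 of Cat100-6 in control soil, at -0.57 and -0.61. In S1587-17 the 4 differences were -0.29, -0.17, 0.16 and 0.22 in the order Zm.10317.1.S1_at, Zm.14518.1.A1_at, Zm.14518.1.S1_at and Zm.14518.1.S1_s_at, with SEs of 0.13 to 0.21, and none passed. None of the 4 differences between responses passed with all arrays. That of Zm.14518.1.A1_at, -0.55 ± 0.18, passed at -0.66 without replicate 3 of S1587-17 in control soil.

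The other pyruvate decarboxylase genes on the array gave no single pattern either. The gene pdc3 had 8.26, 8.51 and 8.30 in acid soil and 8.08, 8.43 and 7.54 in control soil in S1587-17. In Cat100-6 it had 8.39, 8.34 and 7.94 in acid soil and 7.37, 7.24 and 7.16 in control soil. It rose in acid soil in Cat100-6, by 0.96 ± 0.20 (adjusted p = 0.0026), opposite to pdc2, and its difference in S1587-17 was 0.34 ± 0.20 (adjusted p = 0.874). The 2 probe sets of pdc1 were dim, at group means of 3.72 to 4.21, and did not pass in any of the 5 comparisons.

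Malate synthase, mas1, differed between the lines in both soils and not detectably between soils. Its values in S1587-17 were 6.19, 6.22 and 6.11 in acid soil and 6.02, 5.80 and 6.37 in control soil. In Cat100-6 they were 9.16, 8.50 and 9.17 in acid soil and 9.01, 8.48 and 8.74 in control soil. Every array of S1587-17 was below every array of Cat100-6. S1587-17 was 6.82-fold lower in acid soil (-2.77 ± 0.20) and 6.40-fold lower in control soil (-2.68 ± 0.20), at places 184 and 398 by size among all probe sets. The acid minus control differences were 0.20 ± 0.20 in Cat100-6 and 0.11 ± 0.20 in S1587-17, with 95% confidence intervals of -0.25 to 0.65 and -0.34 to 0.56. The difference between them was 0.09 ± 0.29.

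**Figure D3:**
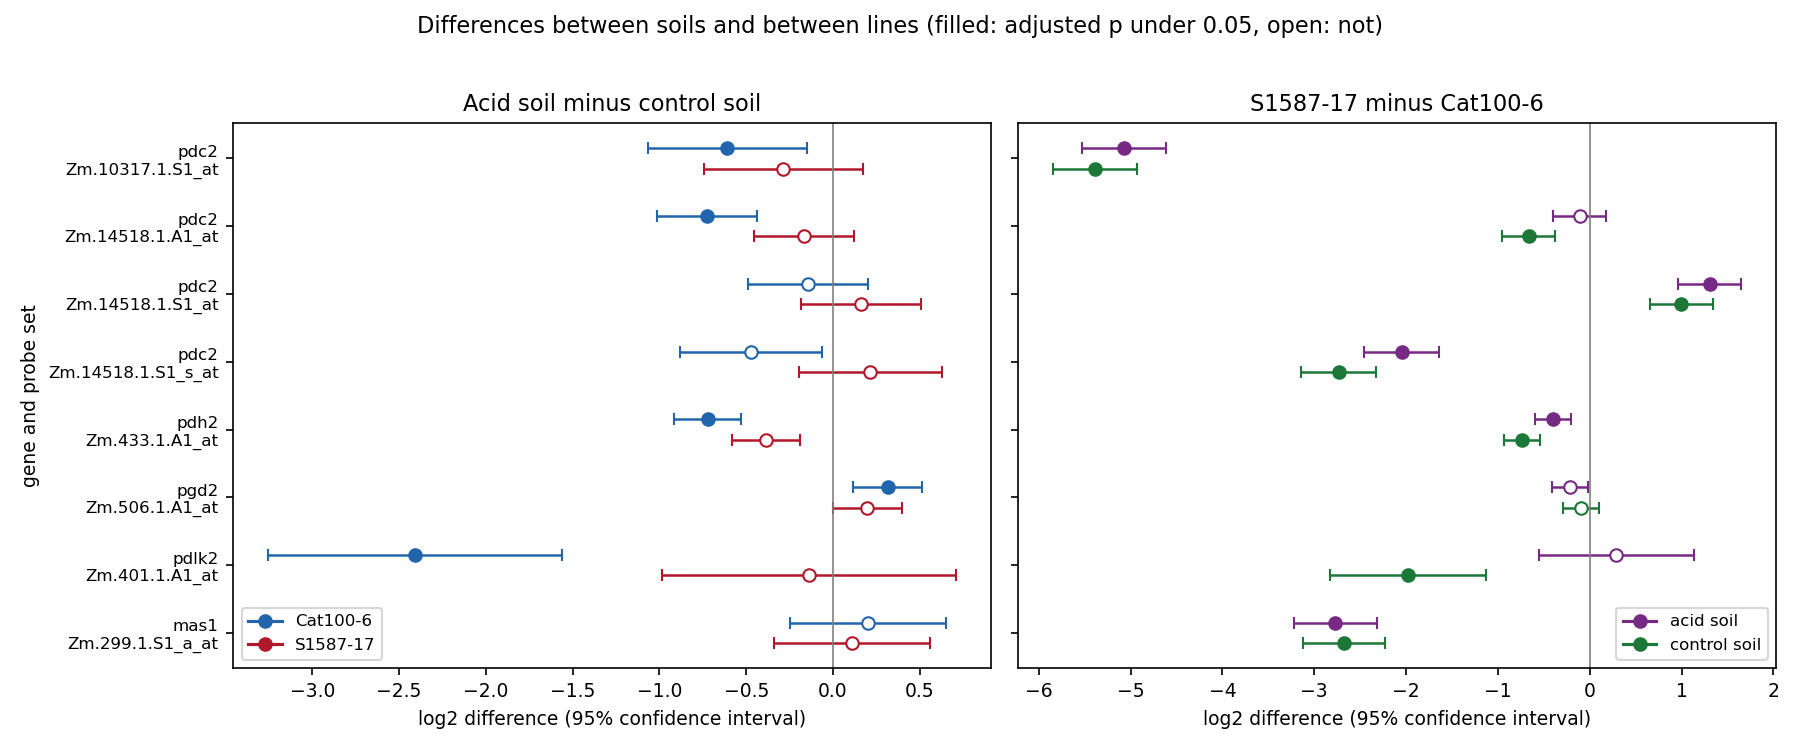
Log2 differences of the 8 probe sets (y axis) with 95% confidence intervals. The left panel gives acid soil minus control soil in Cat100-6 and in S1587-17, and the right panel gives S1587-17 minus Cat100-6 in acid and in control soil. Filled points passed at an adjusted p under 0.05. The pdc2 probe sets spread from -5.39 to 1.31 between lines, and pdlk2 passed between lines in control soil alone.

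The counts of responses stand beside those of all probe sets as a description, since soil responses were among the values used to choose the names. In Cat100-6, 5 of the 8 probe sets passed between soils, against 55.0% of all. Lower in acid soil were 4 of the 8 (2 of pdc2, pdh2 and pdlk2), against 31.5% of all, and higher was 1 (pgd2), against 23.5%. The arrays of the 2 soils did not overlap for 6 of the 8, against 68.6% of all. In S1587-17, 0 of the 8 passed by limma, as did 0.0% of all 17621 (1 of them without replicate 3 of the control soil). At an unadjusted p under 0.05 there were 1 of the 8 (pdh2) and 613 of all, or 3.48%. The arrays did not overlap for 2 of the 8 in S1587-17 (pdh2 and pgd2), against 7.66% of all.

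The Cat100-6 responses depend on where the arrays are set to be equal. The median difference of all probe sets was -0.14 in the deposited values and 0.36 once the spiked controls had been given an equal mean on all arrays. Under that scaling the response of pdlk2 was -1.91 and passed, and those of pdh2 (-0.23), Zm.10317.1.S1_at (-0.11) and Zm.14518.1.A1_at (-0.23) did not pass, while mas1 (0.70) and pgd2 (0.81) passed as higher in acid soil. Relative to the median of all probe sets the values were -2.27 for pdlk2, -0.58 for pdh2, -0.47 and -0.58 for those pdc2 sets, 0.34 for mas1 and 0.46 for pgd2. These relative values cannot differ between the 2 scalings, because the spiked scaling shifts all probe sets of an array by 1 amount. Genes of leaf photosynthesis moved in the same contrast, 13 of their 19 probe sets lower and 1 higher in Cat100-6 in acid soil. Under the spiked scaling 2 were lower and 2 higher. Of all 17621 probe sets, 5556 were lower and 4141 higher in the deposited values, and 1050 lower and 6589 higher under the spiked scaling. The part of a changed cell make-up was not tested, and in whole leaves fewer cells of a type and less RNA per cell cannot be told apart.

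Counts of line differences are likewise a description. In acid soil 5 of the 8 probe sets passed, against 24.0% of all. Lower in S1587-17 were 4 (2 of pdc2, pdh2 and mas1), against 13.3% of all, and higher was 1 (the pdc2 set Zm.14518.1.S1_at), against 10.6%. In control soil 7 of the 8 passed, against 51.5% of all. Lower in S1587-17 were 6 (3 of pdc2, pdh2, pdlk2 and mas1), against 28.2% of all, and 1 was higher, against 23.2%. The arrays of the lines did not overlap for 6 of the 8 in acid soil and 7 of the 8 in control soil, against 45.5% and 55.5% of all. Since line differences were among the results known when the names were chosen, these counts are no sign that the genes stand out. For pdlk2 the lines differed by -1.98 ± 0.39 in control soil, 3.95-fold lower in S1587-17, and by 0.29 ± 0.39 in acid soil, which did not pass. For pdh2 they differed by -0.40 ± 0.09 in acid soil and -0.74 ± 0.09 in control soil, and both passed. Without replicate 3 of S1587-17 in control soil the line differences there were -2.41 for pdlk2, -0.79 for pdh2, -2.83 for mas1 and -0.039 for pgd2. For pdc2 they were -5.51, -0.77, 1.09 and -2.56 in the order used above. The same 7 of the 8 passed.

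The surrounding pathway was read from 7 lists of 49 further probe sets found by gene symbol, of which 35 passed in Cat100-6 and 0 in S1587-17 by limma (0 also at an unadjusted p under 0.05), beside 55.0% and 0.0% of all probe sets. The rises and falls given for each list in Cat100-6 stand beside 23.5% and 31.5% of all. Of the pyruvate dehydrogenase list, 2 of 4 rose and 2 fell in Cat100-6. Those that fell were both probe sets of the second kinase gene pdlk1. Its brighter set had 9.53, 9.50 and 9.58 in acid soil against 9.91, 9.96 and 10.04 in control soil in Cat100-6 (-0.44 ± 0.13, adjusted p = 0.0135), a smaller step than that of pdlk2, and this difference turned to 0.058 under the spiked scaling. Those that rose belong to 2 genes both named pdh1, whose product the sources used here do not state. They differed by 1.31 ± 0.23 (adjusted p = 0.0011) and 0.79 ± 0.15 (adjusted p = 0.0018).

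Of the 9 probe sets of the fermentation list outside pdc2, 4 rose and 2 fell in Cat100-6. Besides pdc3, the aldehyde dehydrogenase gene rf2b rose by 0.78 ± 0.12 (adjusted p = 0.0006), to 6.71, 6.62 and 6.41 in acid soil, against 5.82, 5.83 and 5.76 in control soil. Those that fell were rf2c (-1.21 ± 0.20, adjusted p = 0.0007) and rf2, the mitochondrial aldehyde dehydrogenase known as a restorer of male fertility (-1.16 ± 0.28, adjusted p = 0.0051). The alcohol dehydrogenase gene adh1, named after its values were seen, had 9.93, 9.51 and 9.48 in acid soil against 8.62, 8.21 and 8.22 in control soil in Cat100-6 (1.29 ± 0.31, adjusted p = 0.0052). The median of the list was -0.11, beside -0.14 for all probe sets. Aldehyde dehydrogenase and pyruvate decarboxylase genes therefore each had members that rose and members that fell.

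The glyoxylate cycle was represented, besides mas1, by isocitrate lyase (ICL), the enzyme that makes glyoxylate from isocitrate. Of its 2 probe sets, 1 fell in Cat100-6 in acid soil (-0.75 ± 0.15, adjusted p = 0.0018), and this call was lost under the spiked scaling (-0.26). The other had 5.21, 5.30 and 5.49 in acid soil against 5.73, 5.60 and 5.56 in control soil and did not pass (-0.30 ± 0.14, adjusted p = 0.0891). It did pass, at -0.30, without replicate 3 of S1587-17 in control soil. Neither ICL set passed between lines in either soil, while the mas1 difference was 6-fold or more (6.82-fold in acid soil and 6.40-fold in control soil). The brighter ICL set had only 5.21 to 5.73 in Cat100-6 and no detection call, so a line difference of ICL could have been missed. For the peroxisomal glyoxylate pathway of photorespiration the list held only catalases, enzymes that break down hydrogen peroxide, and 2 of 5 probe sets fell. The sources used here do not give the place of each catalase in the cell, so this count describes catalase genes and not that pathway. The gene cat2 had 9.08, 8.08 and 9.48 in acid soil against 10.97, 10.91 and 10.81 in control soil in Cat100-6 (-2.01 ± 0.40, adjusted p = 0.002). It was lower in S1587-17 than in Cat100-6, with differences of -2.24 ± 0.40 in acid soil and -3.81 ± 0.40 in control soil. The gene CAT3 fell in Cat100-6 (-1.07 ± 0.21, adjusted p = 0.0019) and cat1 did not pass (0.01 ± 0.11), though under the spiked scaling it passed as higher (0.50).

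Of the glycolysis list, 10 of 17 probe sets rose and 5 fell in Cat100-6, and the list median was 0.35 beside -0.14 for all. Its probe sets stand for 12 genes. They include gpa1 and the chloroplast gene gpb1, both also counted among the leaf photosynthesis genes, so not all are steps towards pyruvate. The cytosolic glyceraldehyde-3-phosphate dehydrogenase genes gpc3 and gpc4 rose by 1.27 ± 0.12 and 1.73 ± 0.17 (adjusted p under the threshold by limma for both). The gene pfk1 fell by 2.39 ± 0.38 (adjusted p = 0.0006), with 8.11, 7.29 and 8.71 in acid soil against 10.37, 10.38 and 10.55 in control soil in Cat100-6. Of 10 probe sets of C4 enzymes that make or use pyruvate and phosphoenolpyruvate, 5 fell and 1 rose, with a median of -0.46. The malic enzyme gene me3 fell by 1.62 ± 0.42 (adjusted p = 0.0083) and the phosphoenolpyruvate carboxylase gene pep1 fell by 0.65 ± 0.23 (adjusted p = 0.0326), and the pep1 call was lost without replicate 2 of Cat100-6 in acid soil (-0.33) and without any 1 of the 3 arrays of Cat100-6 in control soil (-0.64, -0.64 and -0.66). Of the probe sets of pyruvate phosphate dikinase, which regenerates phosphoenolpyruvate from pyruvate, the one the naming rule chose fell by 0.66 ± 0.20 (adjusted p = 0.0164). Of 2 malate dehydrogenase probe sets, mdh6 fell by 0.89 ± 0.21 (adjusted p = 0.0049) and mdh4 did not pass (-0.06 ± 0.09). Under the spiked scaling pep1 (-0.15), the named dikinase set (-0.16) and mdh6 (-0.40) did not pass. The dikinase sets lay equally far apart in the deposited values and under that scaling, which shifts all probe sets of an array by 1 amount. Under it another set of the same gene passed as higher in acid soil in Cat100-6 (1.72), and the remaining sets of the gene (-0.057, -0.20 and 0.19) did not pass. The fall of the named set therefore does not stand for all sets of this gene. With the spiked scaling the C4 list had 3 higher and 1 lower, and the glycolysis list 11 higher and 3 lower. Of all 17621 probe sets, 6589 were higher and 1050 lower under that scaling, against 4141 and 5556 in the deposited values.

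**Figure D4:**
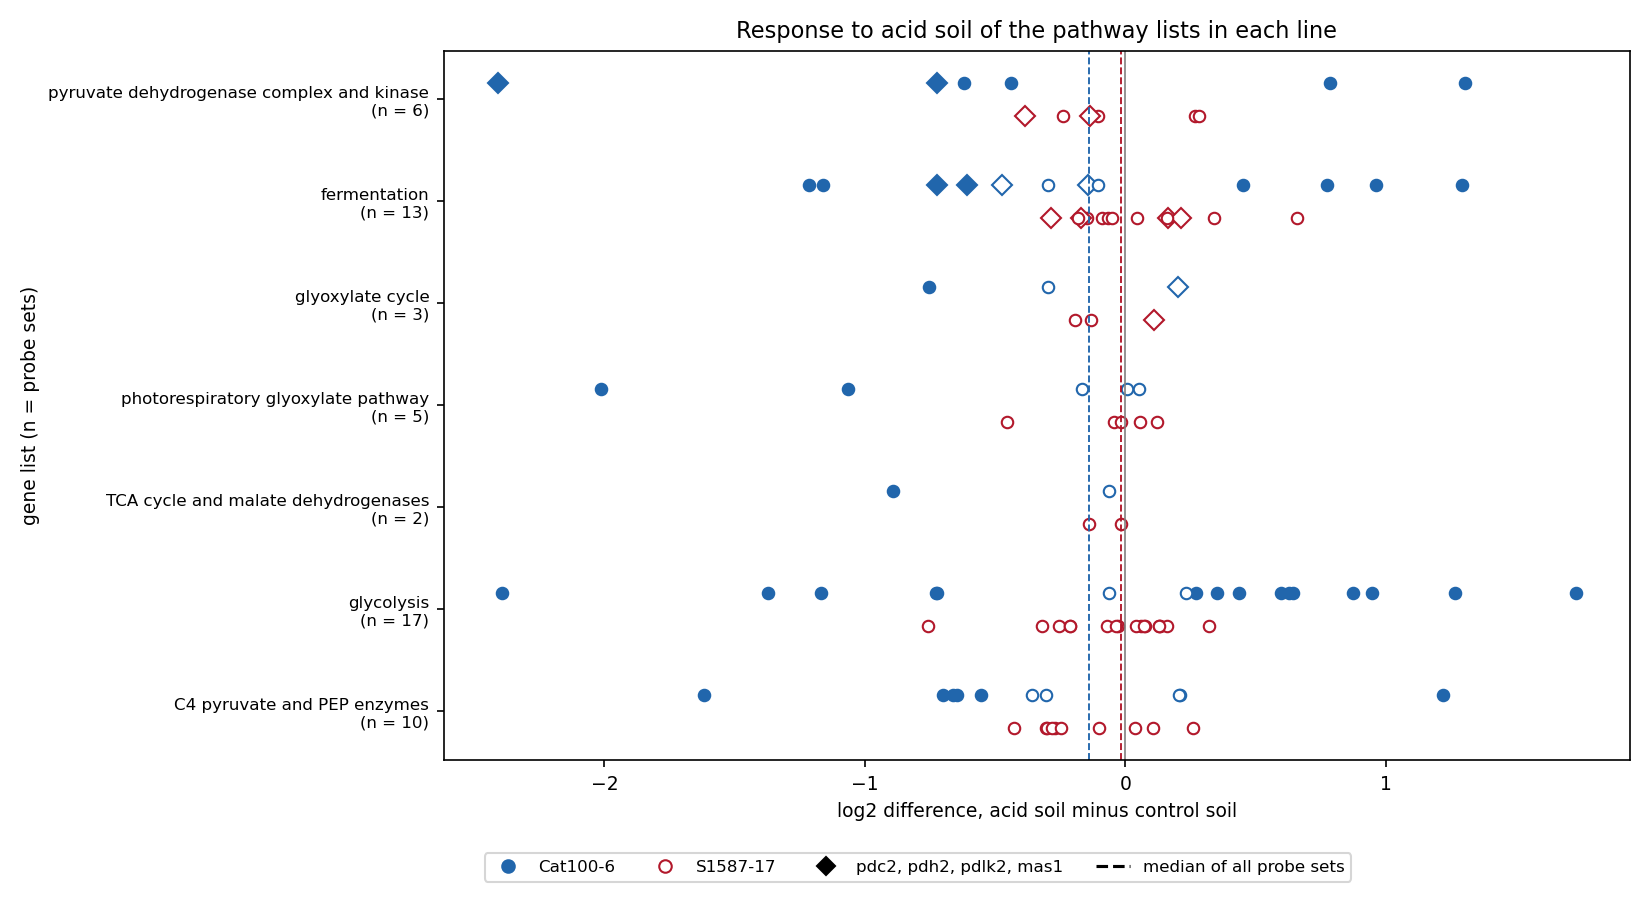
Log2 difference between acid and control soil (x axis) of each probe set of the 7 lists (y axis, n is the number of probe sets), in Cat100-6 and in S1587-17. Diamonds are probe sets of pdc2, pdh2, pdlk2 and mas1, filled symbols passed at an adjusted p under 0.05, and dashed lines are the medians of all probe sets. In Cat100-6 filled symbols lie on both sides of 0 in the dehydrogenase, fermentation, glycolysis and C4 lists, and no symbol is filled in S1587-17.

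Between the lines the same 49 probe sets gave 9 that passed in acid soil and 27 in control soil, beside 24.0% and 51.5% of all probe sets. In the pyruvate dehydrogenase list 0 of 4 passed in acid soil, and 2 were higher in S1587-17 in control soil, both named pdh1. Without replicate 3 of S1587-17 in control soil the brighter pdlk1 set also passed there, as lower in S1587-17 (-0.29). In the fermentation list 0 of 9 passed in acid soil, and 2 were higher and 2 lower in S1587-17 in control soil. At an unadjusted p under 0.05 there were 11 of the 49 in acid soil and 33 in control soil (22.4% and 67.3%), beside 35.6% and 57.3% of all.

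The genes whose profile over the 12 arrays came closest to each probe set were found by the root mean square difference after centring each profile on its own mean, among probe sets with exactly 1 symbol. For pdlk2 these were the sucrose transporter gene sut1 (0.19), GA20 (0.21) and see2b (0.26), while pdlk2 itself varied by 1.05 around its mean. For mas1, which varied by 1.38, the closest was the pdc2 set Zm.14518.1.S1_s_at (0.39), then DIP1 (0.40) and the sucrose synthase gene sus2 (0.41). For pdh2, which varied by 0.41, they were GLB1 (0.12), the chloroplast glyceraldehyde-3-phosphate dehydrogenase gene gpb1 (0.15) and the pdc2 set Zm.14518.1.A1_at (0.15). For pgd2 (0.17) they were 334B7.2 (0.08), HP1 (0.09) and gst3a (0.10).

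No other pdc2 set was the closest to a pdc2 set by design, since only other genes were ranked. For Zm.10317.1.S1_at, which varied by 2.64, the 3 closest were prpo1 (0.64), his1 (0.85) and LOC542088 (0.91). For Zm.14518.1.S1_s_at (1.23) they were m21 (0.31), DIP1 (0.37) and mas1 (0.39). For Zm.14518.1.A1_at (0.35) they were siaf244694b (0.12), LOC541758 (0.13) and GLB1 (0.14), and for Zm.14518.1.S1_at (0.60) they were aoc1 (0.21), eif7 (0.24) and gst9 (0.27). The lists of the 4 sets shared no gene. The distance also depends on how much a profile varies, which differed between the 4 sets, so this alone does not show profiles of unlike shape. These distances describe the 12 arrays, which share 4 group means, and were not tested.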

How the data were processed

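The deposited table holds log2 expression values made by the authors with RMA, as the submitters' processing notes state. Which program ran RMA, and how, is not given in the sources used here. Array medians were 7.13 to 7.27. RMA values carry no detection calls, and the number of arrays (3 per group) limits the precision. Titles gave the groups and replicate numbers. Another label spells Cat100-6 as Ca100-6, and a description common to the samples speaks of root leaves, which was taken to mean leaves.

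Of 17734 probe sets, 113 controls were left out and 17621 tested. The platform annotation gave 1 symbol to 1452, several to 1 and none to 16168, and 1377 were found in the RefSeq gene table of B73 NAM 5.0. That table has no product descriptions, so the pathway lists were matched by symbol and synonym alone, although description matches had been planned. Sequences and genome positions were not used here.

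All 12 arrays were fitted with limma 3.58.1 in R 4.3.3, a mean per group, 8 residual degrees of freedom and empirical Bayes moderation. Contrasts were the soil response of each line, their difference (Cat100-6 minus S1587-17) and the lines in each soil (S1587-17 minus Cat100-6), with Benjamini-Hochberg adjustment over all probe sets. The procedure was tested on simulated data. From each pathway list the text names up to 3 genes with the lowest p in the Cat100-6 response and 2 in the control-soil line difference, the brightest probe set per gene, all pdc1 and pdc3 sets, and the 3 most alike profiles. The members, lists and rules were chosen with earlier results of these data known. Same-numbered samples did not deviate together (correlations of -0.292 to 0.190 over 12 pairs, 3 of them over 0.1), so no pairing was used. Alternatives were a filter on dim probe sets, 3 scalings, other variance models, array weights, a replicate block, a size threshold and each array left out. Figures were drawn with matplotlib 3.10.9.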

Additional observations from a re-analysis of the deposited data

Results flagged for a closer look

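In the difference between the soil responses of the lines (Cat100-6 minus S1587-17), 6 named genes passed limma's test of that difference, as did 14.7% of all probe sets. Most list genes were named for a low p in the Cat100-6 response or the control-soil line difference, which share arrays with this difference. The count is therefore a description. The value was -2.27 for pdlk2, which is the difference described above and was lost when any 1 of 7 particular arrays was left out. It was -1.12 for rf2c and 0.61 for rf2b, aldehyde dehydrogenase genes that moved in opposite directions. It was -1.19 for the catalase gene CAT3. It was 1.29 for gpc3 and 1.77 for gpc4. Without replicate 3 of S1587-17 in control soil these were -2.70 for pdlk2, -1.24 for rf2c, 0.69 for rf2b, -1.22 for CAT3, 1.39 for gpc3 and 1.94 for gpc4, and all 6 passed. Further named genes passed then, among them pdc3 (0.86), pdlk1 (-0.49) and the 2 genes named pdh1 (0.70 and 1.33). With each of the 12 arrays left out in turn, gpc3 and gpc4 passed every time. The call of rf2c held for 3 of the 12 omissions (replicate 2 or 3 of Cat100-6 in acid soil and replicate 3 of S1587-17 in control soil). That of rf2b also held for 3 (replicate 3 of Cat100-6 in acid soil, of S1587-17 in acid soil and of S1587-17 in control soil). That of CAT3 held for 6 and was lost without any 1 array of Cat100-6 in control soil, replicate 1 or 2 of S1587-17 in acid soil or replicate 2 of S1587-17 in control soil. The values over these omissions were -1.34 to -0.86 for rf2c, 0.53 to 0.71 for rf2b and -1.36 to -0.94 for CAT3. When arrays were set to the spiked controls, rf2c (-0.72) and CAT3 (-0.78) did not pass. No explanation was tested.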

How the results depend on the processing

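Across all alternatives, 817 values of the member differences were computed, of which 766 kept sign and side of the threshold, 14 passed newly, 21 no longer passed and 16 turned sign. The number of the 8 probe sets that passed in Cat100-6 between soils was 3 with arrays set to the spiked controls and 1 at a size of at least 1 log2 unit. Of all 17621, 7639 and 2991 passed in these fits, against 9697 in the main fit. In the difference of responses 2 of the 8 passed after a second quantile normalization and 3 with array weights, beside 2830 and 7381 of all, against 2588. Without the 40% dimmest probe sets, dim pdc2 sets leave the test. Between lines 4 then passed in control soil and 3 in acid soil, beside 6892 and 2976 of the 10572 probe sets kept. At 1 log2 unit or more, 4 of the 8 passed between lines in control soil, beside 3430 of all. A size of at least 1 log2 unit left 13 of the 49 pathway probe sets in the Cat100-6 response and 4 in the difference of responses. Between lines it left 4 in acid soil and 10 in control soil. Of all probe sets it left 2991, 1328, 1221 and 3430 in the same order. With array weights 27 of the 49 and 7381 of all passed in the difference of responses, and with the replicate block 11 and 3494. Between lines in acid soil the spiked scaling gave 20 of the 49 and 6866 of all, against 4223 of all in the main fit. With 1 probe set per gene, 4 passed there. With array weights, whose estimation stopped before it converged, the response of pdlk2 in S1587-17 was 0.32. The Cat100-6 response of the pdc2 set Zm.14518.1.S1_at was 0.040 after quantile normalization and 0.35 under the spiked scaling, where that of Zm.14518.1.S1_s_at was 0.025, that of pdlk1 0.058, the difference of responses 0.077 for Zm.10317.1.S1_at, 0.093 for Zm.14518.1.S1_at and 0.065 for pdh2, and pdlk2 between lines in acid soil -0.16. With the replicate number as a block, 6, 0, 1, 7 and 5 of the 8 passed in the 5 comparisons, against 5, 0, 1, 7 and 5 without it. The lines in control soil come before those in acid soil here, and the addition was Zm.14518.1.S1_s_at in Cat100-6. Of all probe sets 9872, 0, 3494, 9331 and 4444 passed with the block, against 9697, 0, 2588, 9071 and 4223 without it. The causes were not tested.

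With each array left out in turn, 4 to 6 of the 8 passed in Cat100-6, 0 in S1587-17, 0 to 3 in the difference of responses, 5 between lines in acid soil and 7 in control soil. Of the pathway probe sets 32 to 40, 0, 2 to 30, 7 to 12 and 23 to 34 passed in the same order. Of all probe sets 7731 to 10939, 0 to 1, 967 to 7920, 2923 to 5932 and 7455 to 10804 passed in that order. Signs turned for the Cat100-6 response of Zm.14518.1.S1_at (-0.31 to 0.024), the S1587-17 responses of mas1 (-0.022 to 0.26) and pdlk2 (-0.49 to 0.29), the difference of responses of mas1 (-0.061 to 0.31), and pdlk2 between lines in acid soil (-0.11 to 0.62). Replicate 3 of S1587-17 in control soil alone moved the number of all probe sets passing in the difference of responses to 7920 without it, against 2588 with it. A fit of only the groups compared was not run for the difference of responses, which needs all 4.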
